A study of Mus musculus with 10 samples.

Results

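The genes described here encode the mitochondrial ribosomal proteins, the nuclear-encoded subunits of the ribosome inside mitochondria. They were taken as every protein-coding gene whose symbol begins with Mrpl or Mrps followed by a digit, and 78 genes met this rule, of 48471 genes in the deposited tables and 21753 that are protein-coding. Expression was measured by RNA-seq in 10 libraries of myofibroblastic cancer-associated fibroblasts (myCAFs) sorted by surface CD90, the product of Thy1, from mouse pancreatic ductal adenocarcinomas. The CD90-negative fraction (5 libraries) was compared with the CD90-positive fraction (5 libraries) of the same 5 tumour pools. Both groups came from C57BL/6J mice, male per the design text, whose tumours grew from orthotopically transplanted KPC T-LOH organoids, and neither group received a further treatment that the labels name. KPC denotes a genetic mouse model of pancreatic cancer, and its alleles belong to the transplanted cancer cells and not to the host's fibroblasts. The pools hold between 1 and 4 animals by their titles, which name 11 animals in all against the 5 mice of the design text, and n is therefore given as pools. The labels state neither the age of the mice nor which markers besides CD90 defined the sorted myCAFs.

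The mitochondrial ribosome translates the few mRNAs of the mitochondrial genome, which encode core subunits of the respiratory chain and ATP synthase. Its rRNAs are transcribed inside the organelle, whereas all of its proteins are made in the cytosol and imported, so that the particle needs the output of both genomes. Many of its proteins descend from bacterial ribosomal proteins and others arose with the mitochondrion. Nuclear genes of mitochondrial biogenesis are known targets of NRF1, of the ETS-family factor GABP and of YY1, which bind close to the start of transcription.

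Promoter sequences were matched to 69 of the 78 genes (75 annotated starts, each from 250 bases before to 50 bases after the start; RefSeq, GRCm38.p6). Motifs were searched on both strands, and a gene counted once if any of its starts held the motif. The ETS-type motif CCGGAAG was in 26 of the 69 genes (37.7%), against 12.9% of 17491 protein-coding genes. The NRF1-type motif, spelled GCGC, any base, TGCGC, was in 13 genes (18.8%), against 7.17%. The YY1-type motif ATGGCGGC, which begins with ATG and can coincide with a start codon, was in 12 genes (17.4%), against 3.50%. For 2 motifs not tied to mitochondrial genes, TATAAA was in 5 members (7.25%), against 14.8% of protein-coding genes, and CCAAT was in 27 members (39.1%), against 42.3%. Over all 27025 genes with a promoter, coding or not, the shares were 9.93% for the ETS-type motif, 5.19% for the NRF1-type, 2.60% for the YY1-type, 15.7% for TATAAA and 41.1% for CCAAT. At least 1 of the ETS-, NRF1- and YY1-type motifs was in 41 members, at least 2 were in 10 members, and all 3 were in 0 members. A match is a description of these letters and not evidence of binding.

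The promoters of 3 genes are shown because each carries a different pair of the 3 motifs, with the matches in capitals, 5′ to 3′ along the plus strand, where all 3 genes lie. Mrps26 (chr2:130563507-130563806) holds the ETS-type motif in its opposite-strand spelling and 2 overlapping opposite-strand matches of the NRF1-type motif. Mrpl9 (chr3:94443086-94443385) holds the NRF1-type and the YY1-type motif. Mrpl22 (chr11:58171414-58171713) holds the ETS-type and the YY1-type motif. In both Mrpl9 and Mrpl22 the YY1-type match opens with an ATG in the transcribed part.
Mrps26: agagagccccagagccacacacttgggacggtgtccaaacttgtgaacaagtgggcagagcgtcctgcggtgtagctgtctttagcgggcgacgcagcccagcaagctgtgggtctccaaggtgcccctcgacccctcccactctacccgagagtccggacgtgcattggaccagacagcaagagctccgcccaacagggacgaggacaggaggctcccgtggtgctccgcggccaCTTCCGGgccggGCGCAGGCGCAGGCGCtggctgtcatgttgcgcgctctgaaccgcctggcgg
Mrpl9: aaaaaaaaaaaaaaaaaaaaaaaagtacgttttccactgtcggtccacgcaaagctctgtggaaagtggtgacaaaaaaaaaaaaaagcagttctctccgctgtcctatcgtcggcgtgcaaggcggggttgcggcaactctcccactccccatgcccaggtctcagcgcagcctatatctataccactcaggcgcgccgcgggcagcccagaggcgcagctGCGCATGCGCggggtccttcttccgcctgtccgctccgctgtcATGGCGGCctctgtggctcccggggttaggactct
Mrpl22: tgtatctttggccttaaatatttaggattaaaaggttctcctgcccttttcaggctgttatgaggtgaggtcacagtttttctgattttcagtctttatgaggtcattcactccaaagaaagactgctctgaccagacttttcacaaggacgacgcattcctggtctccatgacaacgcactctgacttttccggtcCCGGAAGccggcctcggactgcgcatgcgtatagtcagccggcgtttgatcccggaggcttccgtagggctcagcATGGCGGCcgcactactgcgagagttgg

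These 3 genes did not share a direction. The log2 fold, CD90-negative over CD90-positive, was -0.20 for Mrps26, 0.29 for Mrpl9 and -0.98 for Mrpl22, and the adjusted p-values (edgeR quasi-likelihood, Benjamini-Hochberg over all genes) were 0.760, 0.519 and 0.410. Over the members with a promoter, the median log2 fold was -0.03 with and 0.19 without the ETS-type motif, 0.17 with and 0.09 without the NRF1-type motif, and 0.11 with and 0.13 without the YY1-type motif. The median abundance per transcript length, on the scale of TPM, was 37.4 with and 25.9 without the ETS-type motif, 35.6 with and 31.4 without the NRF1-type motif, and 30.6 with and 31.5 without the YY1-type motif.

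All 78 genes passed the filter on low counts, so the values that follow are for the whole set. At an adjusted p under 0.05, 0 members were higher and 0 were lower in the CD90-negative fraction, whereas 12.9% of the 15378 genes tested were called (5.83% higher and 7.05% lower). Among the 8230 genes within the members' own range of mean expression the share was 10.8%. At an unadjusted p under 0.05 there were 6 members, of which 3 were higher and 3 lower, against 26.9% of all genes (12.9% higher and 14.0% lower). DESeq2 called Mrpl49 higher and Mrpl48 lower, while it called 22.4% of all genes (10.7% higher and 11.8% lower). The 2 sorted fractions are mixtures of cells, and in such bulk samples fewer cells of a type and less RNA per cell cannot be told apart.

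The members' median log2 fold was 0.13, against 0.04 over all genes, with a range from -1.05 to 1.32. Their middle quartiles ran from -0.26 to 0.40, narrower than the -0.49 to 0.53 of all genes. Among the 8230 genes within the members' range of mean expression the quartiles were -0.45 and 0.49. The fold was above 0 for 44 members and below 0 for 34. Over all genes tested it was above 0 for 7995 and below 0 for 7383. The precision was limited for many of them, as it was for genes at large. The 95% interval lay wholly within a 2-fold change in either direction for 26 members and reached beyond it for 52. Their median standard error was 0.38 on the log2 scale. Over all 15378 genes tested the numbers were 4983 and 10395, and the median standard error was also 0.38. A p-value above the threshold therefore does not show that the members were equal in the 2 fractions.

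**Figure D1:**
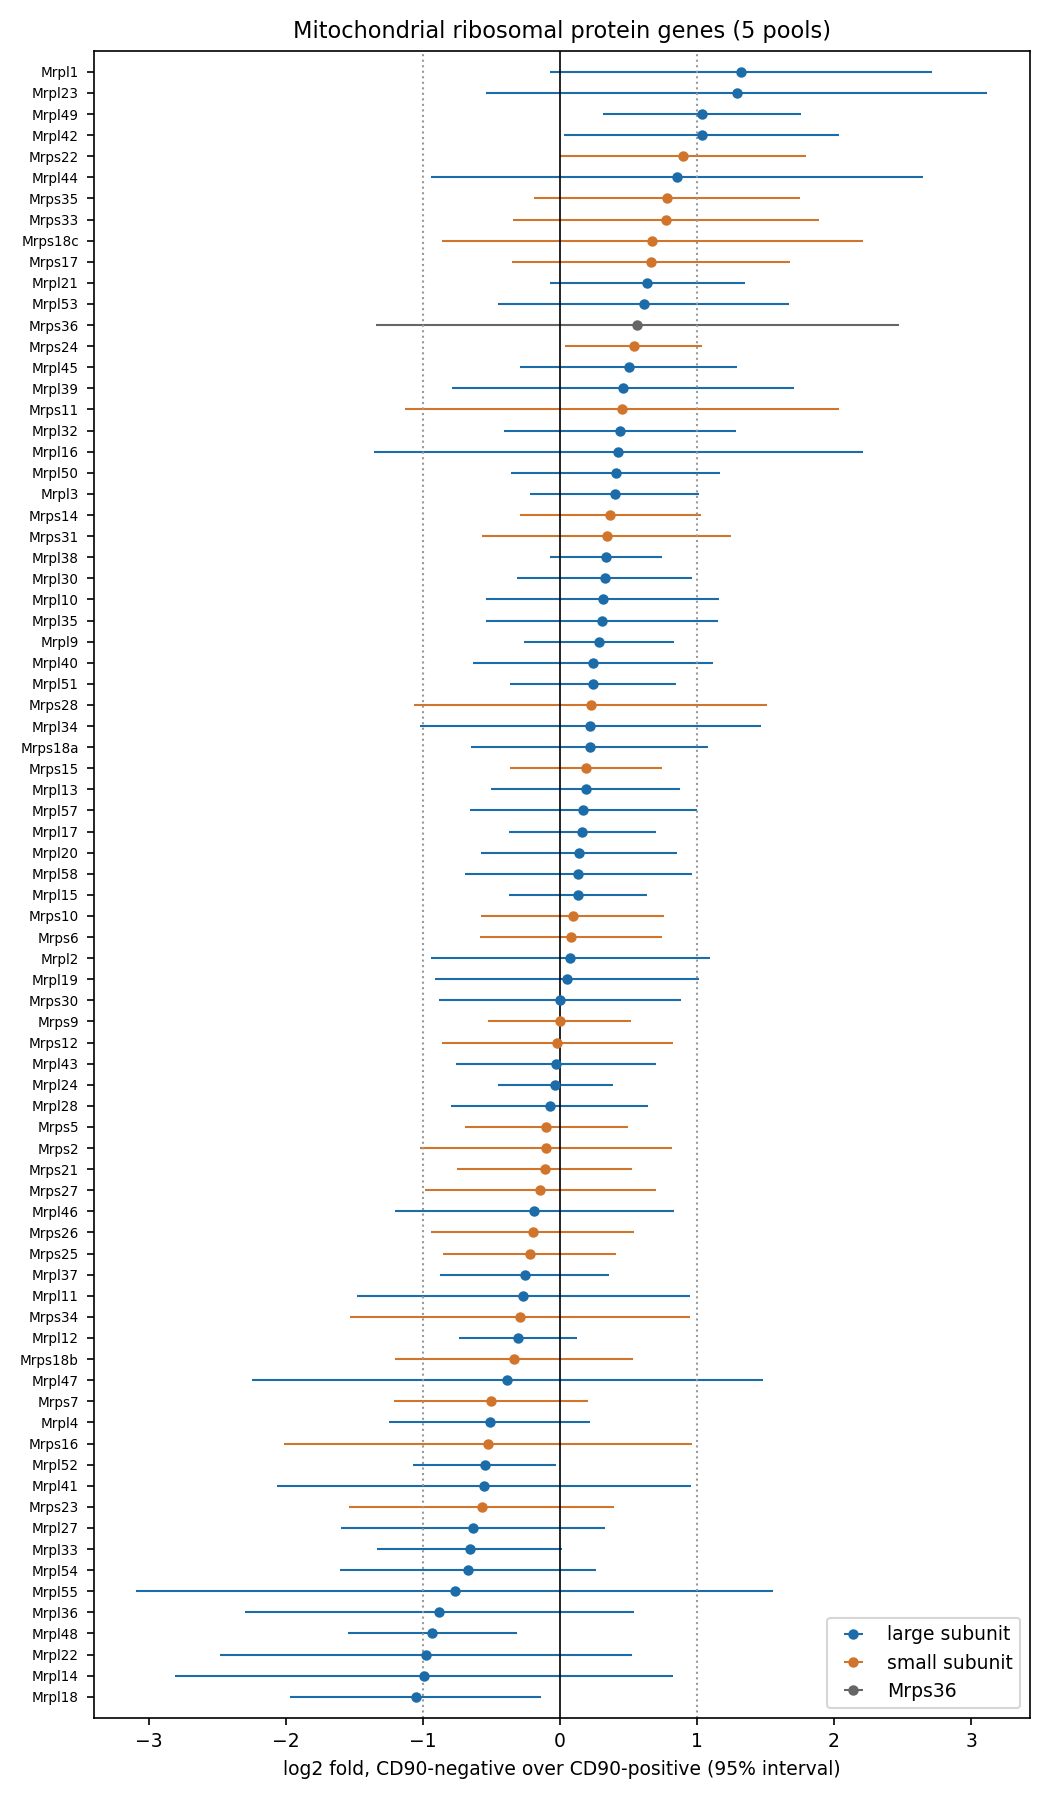
Log2 fold of each of the 78 genes (CD90-negative over CD90-positive, x axis) with its 95% interval from the edgeR fit over 5 pools, with genes in rows and dotted lines at a 2-fold change. Points run from -1.05 for Mrpl18 to 1.32 for Mrpl1, and both subunits are spread over both sides of 0.

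The gene nearest to the threshold was Mrpl48 (ENSMUSG00000030706, chromosome 7), which encodes a large-subunit protein specific to mitochondria. CPM relates a gene's counts to the TMM-scaled size of its library. Mrpl48 had 3.96, 7.78, 13.2, 10.8 and 7.35 CPM in the CD90-negative libraries of pools 1 to 5, against 15.0, 17.6, 20.4, 14.2 and 11.0 CPM in the CD90-positive libraries of the same pools. The CD90-negative library was the lower one in 5 of 5 pools, although the ranges of the groups overlap. The log2 fold was -0.93 (SE 0.28, 95% interval -1.55 to -0.32, adjusted p = 0.0533 by edgeR). DESeq2 gave an adjusted p of 0.0165 and limma-voom 0.0281 (7.34% of all genes called lower), and over all settings tried the fold was weakest, at -0.56, with an offset for transcript length (adjusted p = 0.406).

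In the other direction, Mrpl49 (ENSMUSG00000007338, chromosome 19), which encodes another mitochondria-specific protein of the large subunit, came nearest. It had 7.95, 11.1, 5.03, 8.54 and 11.9 CPM in the CD90-negative libraries of pools 1 to 5, against 4.33, 3.99, 3.89, 4.94 and 3.63 CPM in the CD90-positive libraries. The groups did not overlap, and the CD90-positive libraries lay close together. Its log2 fold was 1.04 (SE 0.32, 95% interval 0.31 to 1.76, adjusted p = 0.0644 by edgeR). Without the pool as a block it was called higher (log2 fold 1.09, adjusted p = 0.0478), in a fit that called 2.74% of all genes higher, and DESeq2 also called it (adjusted p = 0.0135).

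Mrpl18 (ENSMUSG00000057388, chromosome 17), the counterpart of a bacterial large-subunit protein that binds 5S rRNA, had the most negative fold. Its CD90-negative libraries had 8.61, 1.31, 9.62, 9.51 and 5.14 CPM, against 10.9, 10.4, 16.8, 10.1 and 12.6 CPM in the CD90-positive libraries. The groups did not overlap, and the lowest value belongs to the CD90-negative library of pool 2. The log2 fold was -1.05 (SE 0.41, 95% interval -1.97 to -0.14, adjusted p = 0.130 by edgeR), and it was -0.63 without pool 2 (adjusted p = 0.259). With no filter on low counts Mrpl18 and Mrpl48 were called lower (adjusted p = 0.0242 and 0.0202 by edgeR), in a fit that called 5.69% of all genes lower.

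The other large-subunit genes at that end were Mrpl14 with a log2 fold of -0.996, Mrpl22 with -0.98 and Mrpl36 with -0.88, whose products descend from bacterial L14, L22 and L36. Their intervals all included 0, and the adjusted p-values were 0.495, 0.410 and 0.434. All 3 had low counts, and each had its lowest value in the CD90-negative library of pool 2, at 0.302 CPM for Mrpl14, 0.268 CPM for Mrpl22 and 0.570 CPM for Mrpl36. At the other end, Mrpl1, the counterpart of the bacterial L1 stalk protein, had the largest positive fold, 1.32 (SE 0.62, 95% interval -0.07 to 2.72, adjusted p = 0.212). Mrpl1 had 4.65, 4.53, 4.67, 4.27 and 7.54 CPM in the CD90-negative libraries of pools 1 to 5, against 3.59, 1.04, 4.72, 2.36 and 0.491 CPM in the CD90-positive libraries. The CD90-negative library was the higher one in 4 of 5 pools, and pool 3 was the exception.

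Mrpl23, whose bacterial counterpart sits at the exit of the peptide tunnel, had a fold of 1.29 (adjusted p = 0.362) and was listed at 0 in the CD90-positive library of pool 5. Mrpl42, a mitochondria-specific protein of the large subunit, had 11.4, 8.38, 11.9, 9.83 and 6.06 CPM in CD90-negative libraries, against 8.01, 2.97, 12.3, 6.69 and 0.589 CPM in CD90-positive libraries. Its fold was 1.04 (95% interval 0.03 to 2.04, adjusted p = 0.174). As for Mrpl1 and Mrpl23, the lowest value of Mrpl42 was that of the CD90-positive library of pool 5, the library with the fewest member counts.

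Among the small-subunit genes, Mrps22, which encodes a mitochondria-specific protein mutated in human mitochondrial disease, had the largest fold. It had 4.75, 4.06, 6.04, 5.45 and 6.39 CPM in the CD90-negative libraries of pools 1 to 5, against 2.24, 3.44, 3.29, 3.35 and 2.06 CPM in the CD90-positive libraries. The groups did not overlap, yet the adjusted p was 0.187 (log2 fold 0.90, SE 0.40, edgeR). Mrps24 (ENSMUSG00000020477, chromosome 11), the counterpart of bacterial S3, had 13.9, 15.2, 12.1, 10.1 and 9.27 CPM in CD90-negative libraries, against 9.46, 9.41, 9.45, 7.12 and 6.19 CPM in CD90-positive libraries. It was higher in 5 of 5 pools, with ranges that touch between 9.27 and 9.46 CPM, a log2 fold of 0.54 (SE 0.22) and an adjusted p of 0.155.

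The 3 members with the smallest standard errors were Mrpl38, Mrpl24 and Mrpl12. Mrpl38, a mitochondria-specific protein of the large subunit, had a log2 fold of 0.33 (SE 0.18, 95% interval -0.08 to 0.74, adjusted p = 0.288) and was higher in 4 of 5 pools. Mrpl24, the counterpart of bacterial L24, had 15.9, 15.1, 14.7, 15.7 and 20.02 CPM in the CD90-negative libraries, against 17.7, 14.9, 16.7, 16.5 and 17.0 CPM in the CD90-positive libraries. Its log2 fold was -0.03 with an interval from -0.45 to 0.39, so a change of 2-fold lies outside the interval in both directions. Mrpl12, part of the factor-binding stalk and in human cells also described as a partner of the mitochondrial RNA polymerase, had a fold of -0.31 (95% interval -0.74 to 0.12). The small-subunit gene Mrps9, related to bacterial S9, had a fold of -0.0023 (SE 0.23, 95% interval -0.52 to 0.52).

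Several members have particular places in or outside the ribosome. The 3 paralogs related to bacterial S18 had folds of 0.22 for Mrps18a, -0.34 for Mrps18b and 0.67 for Mrps18c (adjusted p = 0.782, 0.643 and 0.598), and Mrps18a, despite its symbol, is built into the large subunit. Mrps30, likewise a large-subunit protein in structures, had a fold of -0.0015 (SE 0.39, adjusted p = 0.999). Mrpl58, a peptidyl-tRNA hydrolase that became part of the large subunit, had 0.13 (adjusted p = 0.863). Mrps36 is now known as a component of the alpha-ketoglutarate dehydrogenase complex and was not counted with either subunit; it had 0.56 (SE 0.86) and was listed at 0 in the CD90-positive library of pool 5.

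Counted by their place in the particle, the 51 large-subunit genes centred on a log2 fold of 0.14 (median) and the 26 small-subunit genes on 0.04, against 0.04 for all genes. The 46 members with a bacterial counterpart had a median of 0.09, and the 29 mitochondria-specific members 0.17. An unadjusted p under 0.05 was found for 5 large-subunit genes (2 higher and 3 lower) and 1 small-subunit gene (higher). Over all genes the share was 26.9%. Differences between these groups were not tested.

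Within single pools, differences were taken as log2(CPM + 1) of the CD90-negative library minus that of the CD90-positive library. The median over the 78 genes was 0.22, 0.01, -0.06, 0.20 and 0.06 in pools 1 to 5. In the same order, 47, 40, 29, 47 and 43 members were higher in the CD90-negative library. These were 60.3%, 51.3%, 37.2%, 60.3% and 55.1% of the members, against 51.0%, 48.8%, 49.9%, 47.0% and 53.6% of all genes. The members scattered less than all genes in every pool, with SDs of 0.59, 0.88, 0.37, 0.62 and 1.03, against 0.95, 1.10, 0.56, 0.93 and 1.17 over all genes. Genes of like expression were not compared with the members in this way. The members' spread was smallest in pool 3, which had the deepest libraries for these genes, and largest in pool 5. Genes higher in all 5 pools were Mrpl9, Mrpl32, Mrpl49, Mrps17, Mrps22 and Mrps24, which is 6 of 78, against 13.5% of all genes. Genes lower in all 5 pools were Mrpl18, Mrpl33, Mrpl48, Mrpl52 and Mrps23, which is 5 of 78, against 14.5% of all genes.

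**Figure D2:**
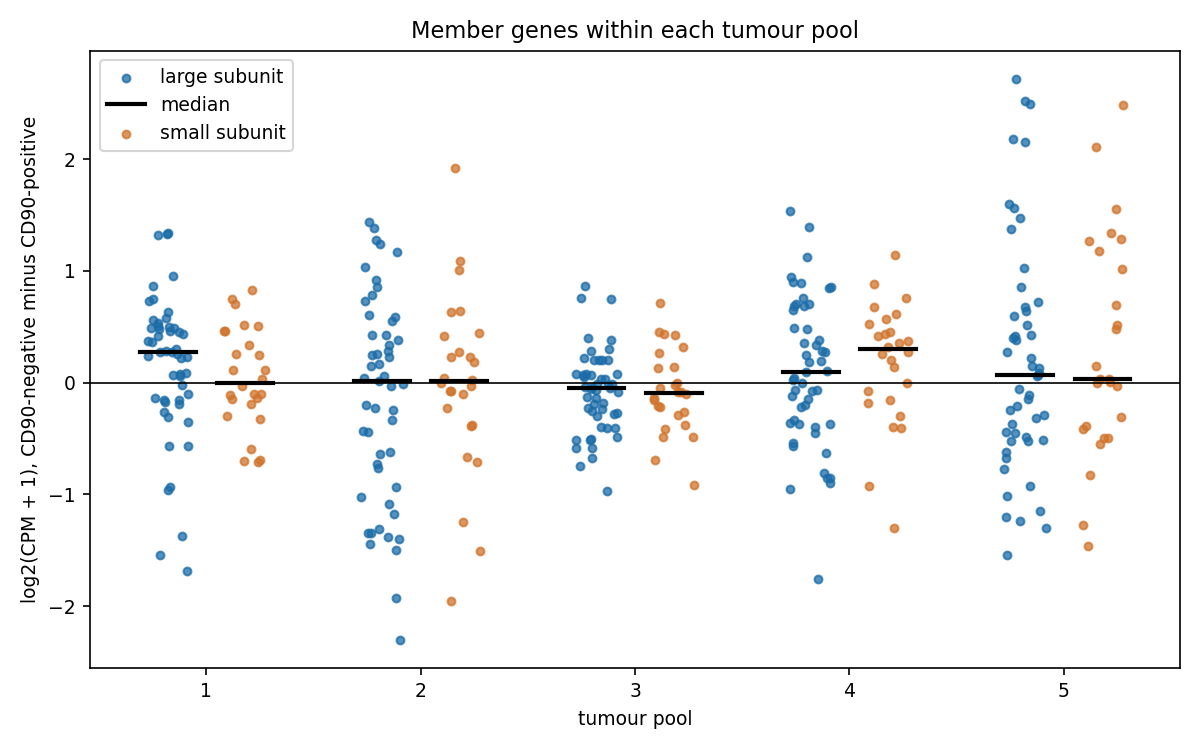
Difference in log2(CPM + 1), CD90-negative minus CD90-positive, for each large- and small-subunit gene (points) in each of the 5 tumour pools, with black bars at the median. The points of pool 3 lie closest together (SD 0.37 over the 78 genes) and those of pool 5 are the most spread (SD 1.03).

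Levels were compared between genes on a length-scaled scale, the summed TPM of a gene's transcripts rescaled to the same total over nuclear protein-coding genes in each library. On this scale Mrpl52 (ENSMUSG00000010406), a mitochondria-specific protein of the large subunit, stood above all other members at 356 ± 101 in CD90-negative and 472 ± 104 in CD90-positive libraries (SD, n = 5 each). In CPM, Mrpl52 had 20.3, 16.5, 27.8, 22.5 and 11.3 in the CD90-negative libraries of pools 1 to 5, against 23.4, 22.7, 34.3, 26.0 and 35.1 in the CD90-positive libraries. It was lower in CD90-negative in 5 of 5 pools, the gap was widest in pool 5, and the log2 fold was -0.55 (95% interval -1.08 to -0.03, adjusted p = 0.166).

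Mrps21, related to bacterial S21, followed with a level of 142 ± 40.7 in CD90-negative and 142 ± 26.3 in CD90-positive libraries. By the mean over all 10 libraries the next were Mrpl15, related to bacterial L15, Mrpl24 and Mrpl42. Their levels were 94.2 ± 19.8, 83.6 ± 15.1 and 101 ± 23.3 in CD90-negative libraries, against 77.0 ± 12.7, 79.6 ± 3.19 and 61.6 ± 44.1 in CD90-positive libraries. These 3 levels lie within their SDs of one another. The lowest levels in CD90-negative libraries were 10.2 ± 1.72 for Mrpl1, 9.50 ± 2.67 for Mrpl44 and 7.70 ± 1.85 for Mrpl47, against 4.10 ± 3.04, 6.39 ± 4.94 and 10.5 ± 8.20 in CD90-positive libraries. Mrpl44 encodes a protein with an RNase III-like fold, and Mrpl47 the counterpart of bacterial L29.

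The median member had a level of 33.2 in CD90-negative and 31.0 in CD90-positive libraries. The mean levels over all libraries ran from 7.15 to 414, and 57 of the 78 members lay above 23.3, the median of the 13636 nuclear protein-coding genes with a level of at least 1. The order of the members was largely shared by the fractions, with Spearman's rho of 0.87 across the 78 genes, which are not independent replicates and share library preparation and gene length.

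**Figure D3:**
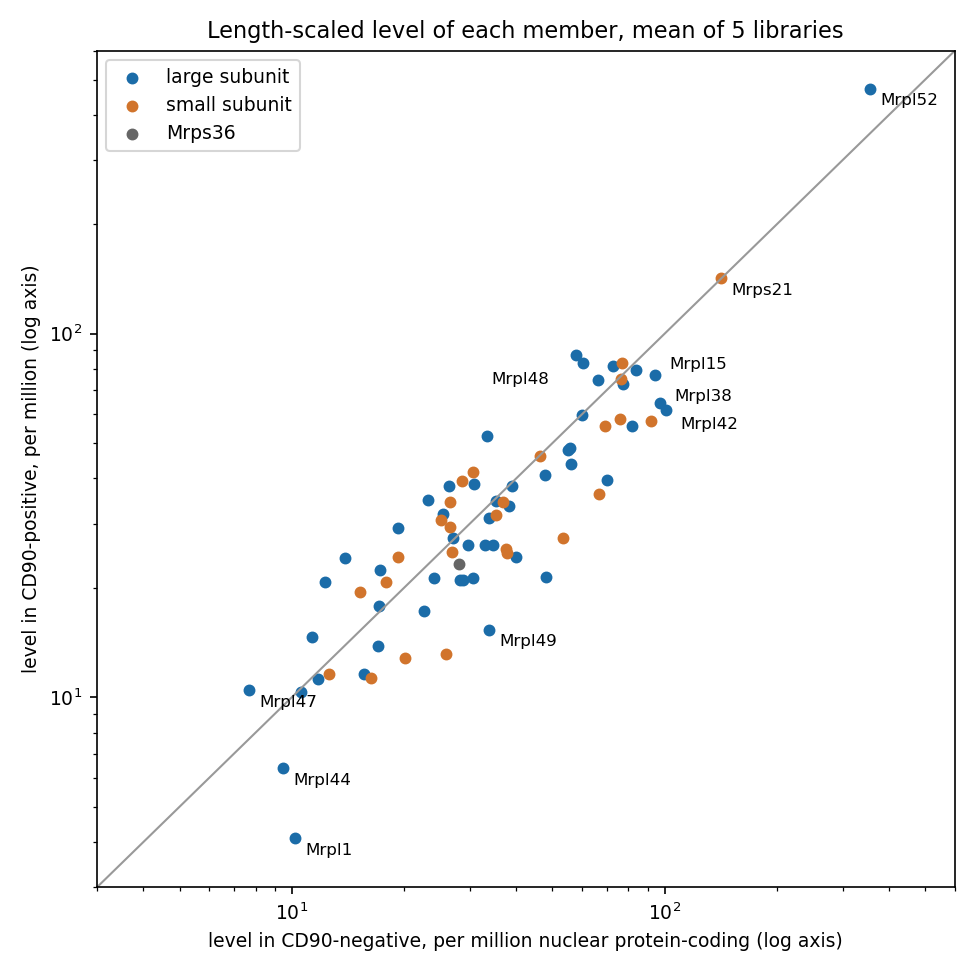
Mean length-scaled level of each member in 5 CD90-negative libraries (x axis) and 5 CD90-positive libraries (y axis), both on log axes, with the line of equality. Mrpl52 lies apart at 356 and 472, and Mrpl49 and Mrpl1 lie furthest below the line among the labelled genes.

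Summed over the 78 genes, the CPM was 549 ± 39.5 in CD90-negative and 535 ± 53.6 in CD90-positive libraries (SD, n = 5 each), and it was higher in CD90-negative in 3 of 5 pools. The summed length-scaled level was 3498 ± 257 in CD90-negative and 3325 ± 340 in CD90-positive libraries, higher in 4 of 5 pools. For the small subunit alone it was 1137 ± 57.4 in CD90-negative and 1012 ± 79.4 in CD90-positive libraries and higher in 5 of 5 pools, although in CPM, at 179 ± 11.1 in CD90-negative and 171 ± 16.4 in CD90-positive libraries, the same genes were higher in 4 of 5. For the large subunit it was 2333 ± 240 in CD90-negative and 2289 ± 258 in CD90-positive libraries, higher in 3 of 5 pools. These sums are given as a description and were not tested. Coding transcripts took 78.6% ± 1.65 of the member counts in CD90-negative and 77.9% ± 3.63 in CD90-positive libraries, and retained-intron transcripts 9.96% ± 0.797 in CD90-negative and 10.2% ± 1.03 in CD90-positive libraries.

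The RNA partners of these proteins were at a different balance. The mitochondrial rRNAs mt-Rnr1, of the small subunit, and mt-Rnr2, of the large subunit, rose in the CD90-negative fraction, with log2 folds of 2.21 (SE 0.47, adjusted p = 0.0135) and 2.16 (SE 0.50, adjusted p = 0.0211) by edgeR. For every count on a member gene there were 1095, 1276, 427, 7017 and 1582 mitochondrial rRNA counts in the CD90-negative libraries of pools 1 to 5, against 321, 296, 86.0, 517 and 865 in the CD90-positive libraries. The ratio was higher in CD90-negative in 5 of 5 pools, with the widest gap in pool 4. Both rRNA calls were lost without pool 1 (adjusted p = 0.0780 for mt-Rnr1 and 0.106 for mt-Rnr2), without pool 2 (0.0684 and 0.0924), without the pool block (0.0710 and 0.0755) and with DESeq2 (0.310 and 0.322), with log2 folds between 2.17 and 2.61.

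**Figure D4:**
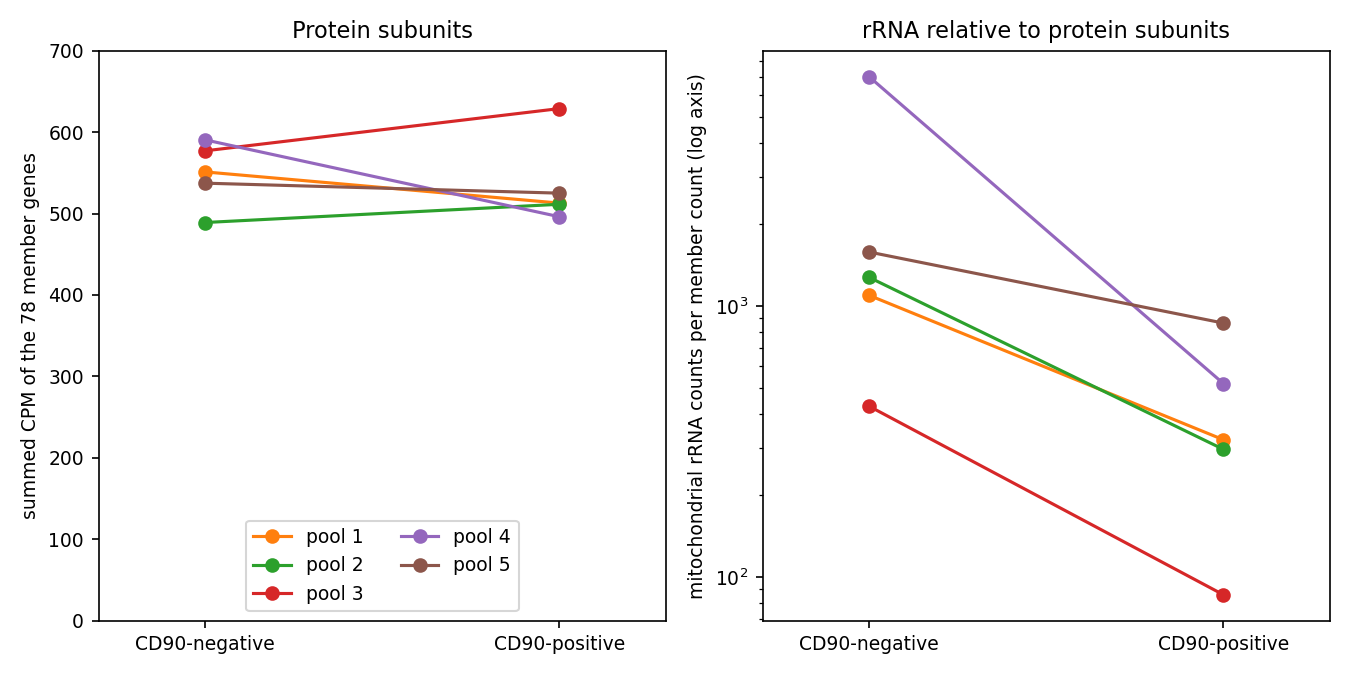
Left, summed CPM of the 78 member genes in each library; right, mitochondrial rRNA counts per count on a member gene (log axis), with each line joining the CD90-negative and the CD90-positive library of a pool. The sums lie between 489 and 629 in all 10 libraries, while the ratio is higher in CD90-negative in 5 of 5 pools.

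The share of mitochondrial rRNA and the depth behind the members differed between libraries. Mitochondrial rRNA took 35.6% to 84.4% of the counts in CD90-negative and 10.5% to 44.8% in CD90-positive libraries, and the members had between 5530 and 29146 counts in CD90-negative and between 5345 and 41712 in CD90-positive libraries. Per the labels the total RNA yield was 0.1 to 1.2 ng and the RNA integrity number 3.1 to 8.7, without a value for each library, so the part of RNA quality in the rRNA difference was not tested. With the rRNA share as a covariate, which itself differs between the groups, edgeR called 0 of 15378 genes, and 882 had an unadjusted p under 0.05. The typical member had a median count of 61 to 331 in CD90-negative and 51 to 472 in CD90-positive libraries.

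Genes that work with the mitochondrial ribosome were read from lists of fixed members. The 5 other subunits, whose symbols fall outside the rule, had 0 calls and a median log2 fold of 0.14, against 0.04 over all genes: Ptcd3, a small-subunit protein, had 0.68 (adjusted p = 0.145), Gadd45gip1 of the large subunit -0.54 (adjusted p = 0.225) and Aurkaip1 of the small subunit 0.15 (adjusted p = 0.745). The 27 genes of ribosome assembly and rRNA modification had 0 calls and a median of -0.15, with the smallest adjusted p, 0.218, for the RNA helicase Dhx30 (log2 fold -0.36). The 15 translation factors and regulators had 0 calls and a median of 0.11; the initiation factor Mtif2 had 0.57 (adjusted p = 0.172) and Lrpprc, which stabilises mitochondrial mRNAs, 0.59 (adjusted p = 0.183). The 20 genes for charging of mitochondrial tRNAs had 0 calls and a median of 0.24, with Tars2, the threonyl-tRNA synthetase, at 0.56 (adjusted p = 0.117). The 16 genes of mitochondrial transcription and RNA processing had 0 calls and a median of 0.15, with the exonuclease Rexo2 at -0.56 (adjusted p = 0.0968). In the order given, an unadjusted p under 0.05 was found for 1, 0, 2, 1 and 2 genes of these 5 lists by edgeR. Over all genes the share was 26.9%. Limma-voom also made 0 calls in them, and DESeq2 called 1 gene, of transcription and RNA processing, higher. At an adjusted p under 0.05, edgeR called 12.9% of all genes, limma-voom 14.8% and DESeq2 22.4%.

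The mRNAs translated by the mitochondrial ribosome were read beside the mRNAs of nuclear-encoded subunits of oxidative phosphorylation. Proteins were not measured. Of the 13 mitochondrially encoded mRNAs, 3 rose and 0 fell, with a median log2 fold of 1.16: mt-Atp8 by 1.72 (SE 0.30, adjusted p = 0.00870), mt-Co3 by 1.49 (adjusted p = 0.0128) and mt-Co1 by 1.78 (adjusted p = 0.0240), the first a subunit of ATP synthase and the others of cytochrome oxidase. Without the pool block the adjusted p-values were 0.100, 0.145 and 0.109, while DESeq2 called 10 of the 13 mRNAs higher, but not mt-Co1 (adjusted p = 0.362), which limma-voom also left above the threshold (0.0574). Without pool 1 the adjusted p was 0.0689 for mt-Co3 and 0.0795 for mt-Co1, without pools 4 and 5 it was 0.0772 for mt-Co3, and for mt-Co1 it was also above the threshold without pool 2 (0.0649) or pool 3 (0.0629). Of the 75 nuclear-encoded subunits of oxidative phosphorylation, 0 were called, against 12.9% of all genes, and their median was 0.14. The smallest adjusted p by edgeR, 0.0630, was that of Sdhd of complex II (log2 fold 0.88). An unadjusted p under 0.05 was found for 6 of the 75, against 26.9% of all genes. Limma-voom called 0 of them and DESeq2 called 1 higher. Over all genes, DESeq2 called 22.4% (10.7% higher) and limma-voom 14.8% (7.45% higher).

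Of the 77 cytosolic ribosomal protein genes tested, 9 rose and 0 fell in the CD90-negative fraction, a share to be read beside the 5.83% of all genes called higher, and their median log2 fold was 0.24. The smallest p-values belonged to Rpl5 (log2 fold 0.78, adjusted p = 0.0191), Rps25 (0.77, adjusted p = 0.0203) and Rpl32 (0.78, adjusted p = 0.0215). Near-identical pseudogenes make the counts of this family uncertain. Each of the 9 calls was lost in at least 6 of the 17 other settings: the list had 1, 0, 11, 0 and 1 calls as pools 1 to 5 were left out in turn. In the same order, 1.99%, 3.72%, 5.5%, 3.4% and 4.61% of all genes were called higher. Of the 11 regulators of mitochondrial biogenesis, 1 rose: Pprc1, a coactivator related to PGC-1, by 0.58 on the log2 scale (SE 0.14, adjusted p = 0.0259). Yy1 had 0.50 (adjusted p = 0.132). Of the 26 genes of mitochondrial protein import, 1 rose: Hspa9, the matrix chaperone of the import motor, with a log2 fold of 0.56 (adjusted p = 0.0466). Both of these single calls are to be read beside the same 5.83% of all genes called higher. The adjusted p of Pprc1 was 0.115, 0.0886, 0.0540 and 0.0639 without pool 1, 2, 3 or 5, and that of Hspa9 was 0.205, 0.130, 0.179 and 0.0994 without pool 1, 2, 4 or 5. 

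**Figure D5:**
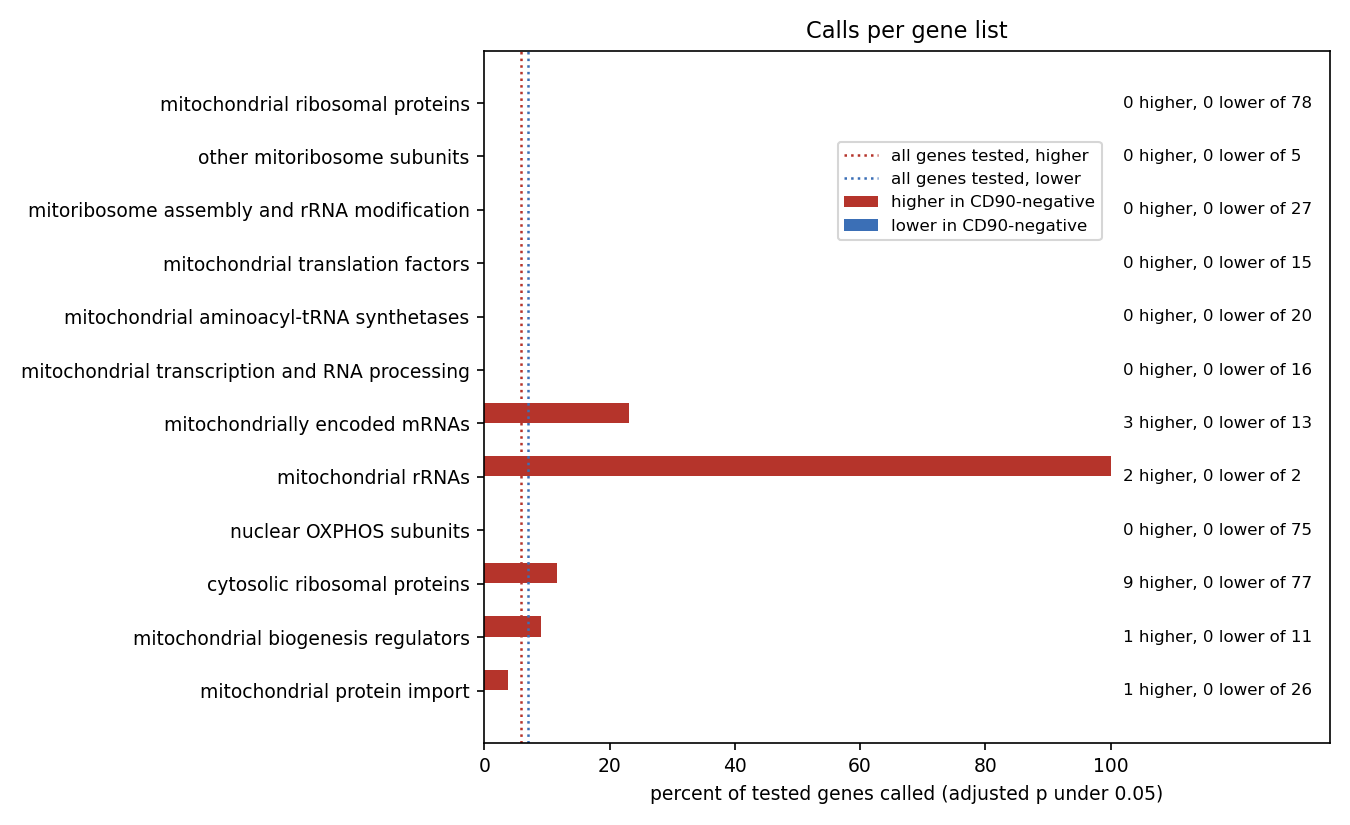
Percent of tested genes called at an adjusted p under 0.05 in each list (bars, higher and lower in CD90-negative), with dotted lines at 5.83% higher and 7.05% lower for all genes. The 78 mitochondrial ribosomal protein genes have 0 calls in either direction, and the 2 mitochondrial rRNAs are both called higher.

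Markers of the sort and of other cell types were read in the same fit. Thy1 had 8.47 ± 5.18 CPM in CD90-negative and 89.1 ± 29.5 CPM in CD90-positive libraries (SD, n = 5 each; log2 fold -3.50, adjusted p = 0.00561). Of 12 fibroblast markers, 11 fell and 0 rose, against 7.05% lower and 5.83% higher over all genes. Their summed CPM was 4087 to 20556 in CD90-negative and 32671 to 54403 in CD90-positive libraries. Transcripts of these markers were thus detected in both fractions. Of 11 epithelial markers tested, 7 rose and 0 fell (732 to 3212 CPM in CD90-negative, 186 to 1724 CPM in CD90-positive libraries). Of 8 macrophage markers tested, 2 rose and 0 fell (17.9 to 86.1 CPM in CD90-negative, 8.20 to 15.1 CPM in CD90-positive libraries). Of 7 endothelial markers, 2 rose and 0 fell (32.6 to 255 CPM in CD90-negative, 27.1 to 37.5 CPM in CD90-positive libraries). Pericyte markers had 0 calls of 6 by edgeR, with an unadjusted p under 0.05 for 5 of them and 4 lower and 1 higher by DESeq2, T and B cell markers 0 of 2 tested, acinar and islet markers 0 of 1 tested, and 2 of 5 mesothelial markers rose, namely Msln and Krt19, which is also on the epithelial list. The 3 other mesothelial markers had negative folds, the median of the 5 was -1.32, each had an unadjusted p under 0.05, and DESeq2 called 2 higher and 3 lower. Some of these counts rest on single pools or on the pairing. Endothelial calls were 0 higher without pool 1 and 0 higher with 1 lower without pool 3, 1 endothelial marker was higher without pool 2, 4 or 5, 1 macrophage marker was higher without pool 1, 2, 4 or 5, and 1 mesothelial marker without pool 1 or 4. Without the pool block 0 epithelial, 0 mesothelial and 1 macrophage marker were called. Fibroblast markers had 8 lower without the block, 7 to 11 lower as each pool was left out and 3 lower without pools 4 and 5. Calls over all genes were also fewer in most of these fits. Without the block, 3.54% of all genes were called lower and 2.74% higher. As each pool was left out, 2.38% to 8.05% were called lower and 1.99% to 5.5% higher. Without pools 4 and 5, 1.14% were called lower. A fit that held the rRNA share of each library as a term called 0 markers of these 5 lists, and 0 of all 15378 genes. The part of this difference in makeup in the members' values was not tested.

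The annotation limits some of the members named above. In GENCODE M21, 33 of the 78 genes share exon bases with another gene, 8 of them on the same strand and 25 on the opposite strand only. Mrpl48 overlaps Rab6a, Mrpl49 overlaps Syvn1 and Mrpl18 overlaps Tcp1 on the opposite strand, and Mrps24 overlaps Urgcp on the same strand. The strand setting of the counting is not stated in the labels, so reads of these pairs may be shared. The pseudogenes Mrpl48-ps and Mrpl23-ps1 had 30.8 and 520 counts over all 10 libraries, against 4275 for Mrpl48 and 1378 for Mrpl23, so the division of reads is more uncertain for Mrpl23. The 3 pseudogenes of Mrps36 had 0 counts.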

How the data were processed

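RNA was sequenced from 5 CD90-negative and 5 CD90-positive libraries, made with a stranded low-input kit from total RNA, per the labels' protocols. The authors deposited an estimated count (expected count) and a TPM value per transcript from Salmon 1.9.0 on GRCm39 (mm39), per the submitters' processing notes. The annotation release, strand setting and bias options were not given in the sources used here. Deposited TPM values were used only for length-scaled levels.

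Of 144584 transcripts, 133666 (92.4%) matched GENCODE M21 (GRCm38), which supplied names, biotypes, chromosomes and exon overlaps. The others held 3.63% to 12.1% of a library's counts. Counts were summed over 48471 genes and rounded. Totals on matched genes were 31.1 to 46.0 M in CD90-negative and 10.3 to 34.0 M in CD90-positive libraries (M, mega), with 3.71 to 19.8 M and 4.57 to 28.5 M of them on nuclear coding genes. Per the labels, low RNA inputs received more cycles of cDNA amplification than high ones, and the input of each library is not given. PCR reads without molecular identifiers are not independent molecules.

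Differential expression used edgeR 4.0.16 in R 4.3.3 (filterByExpr, TMM, robust quasi-likelihood F test) with the pool as block, Benjamini-Hochberg adjustment and a threshold of 0.05. Each 95% interval is from the same fit. The block rests on the animals shared within a pool; deviations of paired libraries from their group means correlated by 0.06, 0.00, 0.46, 0.03 and 0.19. No libraries of a group agreed within counting noise (chi-square per degree of freedom 39.2 to 1605). The script was tested on simulated counts.

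Other settings were no block, 2 other scalings, DESeq2 1.42.0, limma-voom (limma 3.58.1), other count filters, a length offset, protein-coding transcripts, mitochondrial genes left out, a covariate, and pools left out. Named members were those with the 5 largest folds in each direction, the 5 highest and 3 lowest levels, the Mrps18 paralogs, Mrps30, Mrps36, Mrpl12 and Mrpl58. From each list up to 3 genes with the smallest p were eligible. Mrps24, Mrps9, Mrpl38, the members with a shared direction in 5 pools and the 3 promoters were chosen after their values were seen. The members and lists were chosen with earlier results of these data known.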

Additional observations from a re-analysis of the deposited data

Results flagged for a closer look

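Of 54 sets of 5 libraries examined for a library far from the other 4, 5 held one. Chance alone is expected to give about 1 in 20 for independent sets. These sets are measures on the same 10 libraries and are not independent, so that rate cannot serve as a test of the number found. Mrpl24 had 20.02 CPM in the CD90-negative library of pool 5, above the other CD90-negative libraries. Mrpl1 had 7.54 CPM in the same library, again the highest of its group. The summed CPM of the members was 629 in the CD90-positive library of pool 3 and their summed length-scaled level there was 3928, both above the other CD90-positive libraries. The CD90-negative library of pool 4 had 7017 mitochondrial rRNA counts per member count, above the other CD90-negative libraries; its TMM factor was 0.204, the smallest of the 10 libraries, so CPM of its mitochondrial rRNAs exceed what an unscaled library total allows.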

How the results depend on the processing

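The count of called members was 0 in each direction under every setting other than these: without the replicate block and with DESeq2 1 member was higher (Mrpl49), and with DESeq2 and limma-voom 1 (Mrpl48) and with no filter on low counts 2 (Mrpl48, Mrpl18) were lower. The members' median fold was 0.13 with the block and 0.04 without it, ran from 0.03 to 0.17 as each pool was left out, and was -0.014 without pools 4 and 5. Over all genes, 1980 were called, against 965 without the replicate block, 3452 with DESeq2, 1271 from protein-coding transcripts only, 0 with the mitochondrial rRNA share as covariate (882 at an unadjusted p under 0.05), 541 without pools 4 and 5, and 675 to 2019 as each pool was left out, lowest without pool 1 (1252 without pool 2, 1239 without pool 4). The cause of these shifts was not tested. Some folds that were not past the threshold changed sign. Mrps30 was 0.0088 with DESeq2, 0.0086 with relative log expression size factors, 0.012 with the stricter filter, 0.0015 without mitochondrially encoded genes, 0.032 without the block, 0.029 with upper-quartile scaling and 0.021 from protein-coding transcripts. Mrpl14 was 0.071 from protein-coding transcripts and Mrpl47 0.060 with the length offset. With limma-voom Mrpl58 was -0.084 and Mrps18a -0.12, and Mrps18a was -0.0031 without the block. Without pools 4 and 5, Mrpl15 was -0.019, Mrpl58 -0.21, Mrps18a -0.33 and Mrps36 -0.37. As each pool was left out, folds ran from -0.31 to 0.38 for Mrps30, -0.98 to 0.22 for Mrpl47, -0.36 to 0.060 for Mrps21, -0.13 to 0.0058 for Mrpl24, -0.056 to 0.19 for Mrpl15, -0.083 to 0.28 for Mrpl58, -0.20 to 0.45 for Mrps18a and -0.064 to 0.96 for Mrps36. With the rRNA covariate, Mrpl47 was 0.36, Mrps18b 0.68, Mrpl24 0.13 and Mrpl15 -0.83, and the called genes turned to -0.91 (mt-Co1), -0.46 (mt-Co3), -0.30 (mt-Atp8), -0.51 (mt-Rnr1), -0.70 (mt-Rnr2), -0.43 (Rpl37), -0.17 (Rpl32), -0.29 (Rpl30), -0.45 (Rpl17), -0.075 (Rplp0) and -0.060 (Hspa9), none of them past the threshold. The covariate is itself the share of mt-Rnr1 and mt-Rnr2 counts in a library, so that fit cannot decide about either of these rRNAs. Mrpl23 and Mrps36 were at 0 in 1 library, and low counts limit the precision of such members.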
